A study of Mus musculus with 6 samples.

Results

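The transcription factors of the AP-1 complex and of the immediate early response were followed in mouse MC38 colon carcinoma cells recovered from tumour-bearing livers. The set held 10 named genes, Fos, Fosb, Fosl1, Fosl2, Jun, Junb, Jund, Atf3, Egr1 and Ier2, and every array probe annotated to any of them was taken. Of these genes 9 had a probe, 12 probes in all out of the 45281 on the array. Fosl1 was not analysed here. Of the 12 probes, 10 passed the filter for signal above background (detection p below 0.05 on a minimum of 3 arrays out of 6), so that all 9 genes with a probe stood among the 9483 genes tested. The rule took probes by gene name and used no measured value, but the members were chosen with earlier results of these data known.

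Both groups of mice carried the CD11bDTR transgene, in which the promoter of CD11b, an integrin of myeloid cells, directs the diphtheria toxin receptor. All mice received MC38 cells by injection into the spleen, from where the cells seed the liver. The control group was given PBS and the other group diphtheria toxin (DT), in each case into the peritoneum on days 7 and 9, and livers were taken on day 10. Tumour cells were then sorted by flow cytometry, with 3 samples in each group and 1 Illumina bead array for each sample. The labels do not say whether samples came from separate mice, so the spread behind every p-value may be technical. MC38 is a single established line, and no untransplanted cells or mice without the transgene are part of the comparison.

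AP-1 is a dimer of basic leucine zipper proteins. FOS family proteins generally do not pair with each other and need a JUN partner, whereas JUN proteins also pair among themselves and with ATF family members. Fos, Fosb, Jun, Junb, Atf3, Egr1 and Ier2 are immediate early genes: growth factors, stress and tissue dissociation induce them within minutes through MAP kinases, serum response factor and CREB, without new protein synthesis, and their transcripts decay quickly. In carcinoma cells AP-1 is known for its targets in proliferation, invasion and matrix turnover.

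Fos and Fosb had the largest differences of the set and moved together across the arrays. Jun, which encodes a main partner of both, correlated negatively with each. The stretches before the starts of these genes are therefore shown. Each sequence covers the 250 bases upstream of the start in RefSeq on GRCm38.p6, 5′ to 3′ on the strand of the gene. The Fos stretch lies at chr12:85473640-85473889 on the plus strand, that of Fosb at chr7:19310046-19310295 on the minus strand and that of Jun at chr4:95052223-95052472 on the minus strand. Capitals mark matches to the searched motifs.
Fos: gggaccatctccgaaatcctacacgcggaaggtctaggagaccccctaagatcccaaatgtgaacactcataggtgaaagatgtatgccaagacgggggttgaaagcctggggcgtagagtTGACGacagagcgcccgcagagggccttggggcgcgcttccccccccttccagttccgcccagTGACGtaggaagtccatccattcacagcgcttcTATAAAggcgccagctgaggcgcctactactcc
Fosb: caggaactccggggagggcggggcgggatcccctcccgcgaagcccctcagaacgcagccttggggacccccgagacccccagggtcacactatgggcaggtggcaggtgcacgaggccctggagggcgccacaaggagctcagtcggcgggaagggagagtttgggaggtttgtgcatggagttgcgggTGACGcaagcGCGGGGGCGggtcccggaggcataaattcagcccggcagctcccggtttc
Jun: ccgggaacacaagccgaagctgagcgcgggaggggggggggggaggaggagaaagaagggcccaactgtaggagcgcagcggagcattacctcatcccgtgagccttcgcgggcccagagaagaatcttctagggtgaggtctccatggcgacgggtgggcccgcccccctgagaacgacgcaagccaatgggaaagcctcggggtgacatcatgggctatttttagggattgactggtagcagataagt

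Motifs were searched on both strands. They were the cyclic AMP response element TGACGTCA, its first part TGACG, the AP-1 element TGANTCA, the CArG box of serum response factor, TATAAA, and GCGNGGGCG, a motif of EGR proteins. TGACG, which every TGACGTCA contains, stood in the Fos stretch at -129 to -125 and at -66 to -62, and in the Fosb stretch at -60 to -56, counted from -1 at the base before the start. Stretches of 7 members were searched, and TGACG also stood before Junb (-106 to -102) and, on the opposite strand, Atf3 (-7 to -3). Junb and Atf3 had differences of 0.013 and -0.31. TGACG was present in 17.8% of the 32851 upstream stretches in the RefSeq table. TATAAA stood in Fos at -33 to -28 (12.4% of all stretches) and GCGNGGGCG in Fosb at -50 to -42 (4.7%). GCGNGGGCG also stood before Fosl2 (-79 to -71), which was not called. The Jun and Jund stretches held none of the searched motifs. None of the 3 stretches shown held TGACGTCA (1.55% of all), TGANTCA (6.75%) or a CArG box (1.47%), which says only that these letters are not in these windows.

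The arrays differed in brightness. Between 36.7% and 40.6% of probes lay above background on each array, and the mean signal was lowest on PBS replicate 2 (311.3) and DT replicate 1 (363.1) and highest on DT replicate 2 (503.1). Signals were therefore background-corrected and quantile normalized before arrays were compared, and levels are given as normalized log2 signal. Probes differ in how well they bind, so that a level is compared only between arrays and not between genes. Of the labelled cell type's markers, 5 of 13 colon epithelial genes passed the filter, led by Sox9 (12.2 ± 0.21 in PBS, SD, n = 3) and Lgals4, and Epcam, Krt18, Krt19, Krt20, Vil1, Cdx1, Cdx2 and Muc2 did not. Itgam, which encodes CD11b itself, did not pass it either.

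Fos was the 1 gene of the set past the threshold. It was higher after DT by 0.74 on the log2 scale (SE 0.15), or 1.67-fold, and Fosb by 0.89 (SE 0.23), or 1.85-fold, and limma gave adjusted p-values of 0.0482 and 0.0676 over all genes tested. Thus 1 of 9 members was called (adjusted p under 0.05), where 1.09% of all genes tested were called, 0.327% as higher and 0.759% as lower. Both Fos and Fosb had an unadjusted p under 0.05, as did 23.9% of all genes tested. The other 7 members had differences between -0.37 and 0.23 and none passed. The median over the 9 was 0.013, next to 0.011 over all genes tested.

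**Figure D1:**
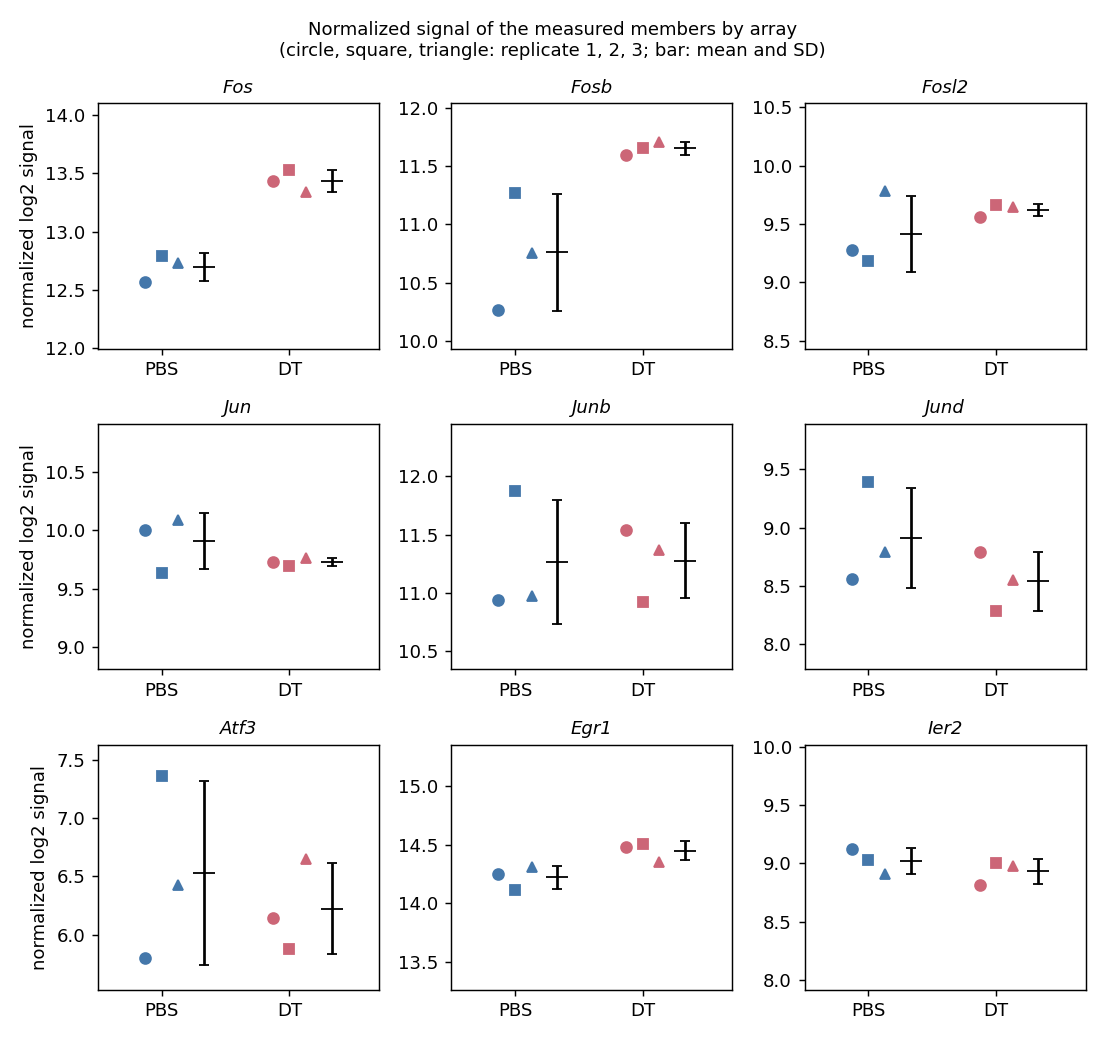
Normalized log2 signal (vertical axis, all panels spanning the same range of log2 units) of the 9 measured members on the 3 PBS arrays (blue) and the 3 DT arrays (red), with each group's mean and SD in black. Fos, Fosb and Egr1 are the genes whose DT arrays all lie above their PBS arrays, and PBS replicate 2 (square) is the highest array for Junb, Jund and Atf3.

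Fos encodes the founding member of the FOS family, whose transcript is among the first to appear after stimulation. Its probe (ILMN_2750515) gave signals of 7113, 4663 and 7277 on PBS arrays 1 to 3 and of 9206, 15457 and 10898 on DT arrays 1 to 3, before normalization. After normalization the log2 signals read 12.57, 12.79 and 12.73 in PBS and 13.43, 13.53 and 13.34 in DT. All 3 DT arrays were above all 3 PBS arrays on both scales, and the smallest DT value was 0.55 above the largest PBS value after normalization. The group means were 12.7 ± 0.12 and 13.4 ± 0.095 (SD, n = 3), and the 95% interval of the difference in limma ran from 0.41 to 1.07. Fos held rank 96 by p among the 9483 genes, with 103 called.

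That call was a narrow one. When every probe past the filter was tested in place of 1 probe per gene, with 240 of 17759 (1.35%) called, the same difference had an adjusted p of 0.0506 in limma. With 1 array left out at a time, Fos missed the threshold in 5 of the 6 fits, at an adjusted p in limma of 0.0975, 0.0558 and 0.092 for PBS replicates 1, 2 and 3 and of 0.15 and 0.237 for DT replicates 1 and 2. The difference stayed between 0.68 and 0.79. With the replicate number as a block the adjusted p was 0.0883. The deposited normalized values gave 0.78 (SE 0.18; limma, adjusted p = 0.0401).

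Fosb, the FOS family member with a strong activation domain and a truncated splice form known from neurons, was detected by a single probe (ILMN_2778279), which was not annotated to either form. PBS arrays gave signals of 1666, 1459 and 1963 and DT arrays of 2559, 4380 and 3623. After normalization the log2 signals read 10.27, 11.27 and 10.76 in PBS and 11.6, 11.66 and 11.71 in DT. The DT arrays lay close together (11.7 ± 0.056) and above all PBS arrays, which spread over 1 log2 unit (10.8 ± 0.50; SD, n = 3). The 95% interval of the difference ran from 0.38 to 1.40, and Fosb ranked 401st by p. The difference was 0.64 without PBS replicate 1 and 1.14 without PBS replicate 2 (limma, adjusted p = 0.142 and 0.0554), and with the deposited normalized values it passed (0.96, SE 0.21; limma, adjusted p = 0.0371).

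Fosl2, a FOS family member without a strong activation domain, had 3 probes. The brightest (ILMN_1252481) gave normalized values of 9.28, 9.18 and 9.79 in PBS and 9.56, 9.66 and 9.64 in DT. The groups overlapped, since PBS replicate 3 was the highest of the 6 arrays, and the difference of 0.21 (SE 0.18) had a 95% interval from -0.197 to 0.61 (limma, adjusted p = 0.517). A dimmer probe (ILMN_2768924) read 5.06, 5.21 and 4.80 in PBS and 5.50, 5.85 and 5.33 in DT, with DT above PBS throughout. Only 2 of the PBS arrays read it above background, and its difference of 0.54 (SE 0.19) did not pass (limma over every probe, adjusted p = 0.136). The third probe (ILMN_2718801) was above background on 1 of the 6 arrays. Whether the probes report different transcripts was not tested.

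None of the JUN family genes passed. Jun encodes the partner that gives FOS dimers their strongest activity. It stood at 10.0, 9.64 and 10.09 in PBS and at 9.73, 9.69 and 9.76 in DT, so that the DT arrays lay between the PBS arrays. Its difference was -0.18 (SE 0.16), with a 95% interval from -0.54 to 0.18 (limma, adjusted p = 0.526). The upper end of this interval lies below the difference found for Fos. With arrays scaled to equal medians in place of quantile normalization, the Jun difference was 0.08, where the median of all genes was 0.185.

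Junb, an inducible JUN protein that can oppose Jun at some targets, had a difference near 0 and a wide spread. Its bright probe (ILMN_1220034) read 10.9, 11.9 and 10.98 in PBS and 11.5, 10.9 and 11.4 in DT, with a difference of 0.013 (SE 0.26; 95% interval -0.57 to 0.598). Before normalization the PBS arrays read 2527, 2252 and 2311 and the DT arrays 2429, 2728 and 2879, a narrower range. A second Junb probe (ILMN_1254833) was not above background on any array. Jund, the JUN member known for steady expression and for restraining growth, read 8.56, 9.39 and 8.79 in PBS and 8.79, 8.28 and 8.55 in DT. Its groups overlapped, and its difference of -0.37 (SE 0.23; 95% interval -0.88 to 0.13) was the most negative of the set (limma, adjusted p = 0.344).

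**Figure D2:**
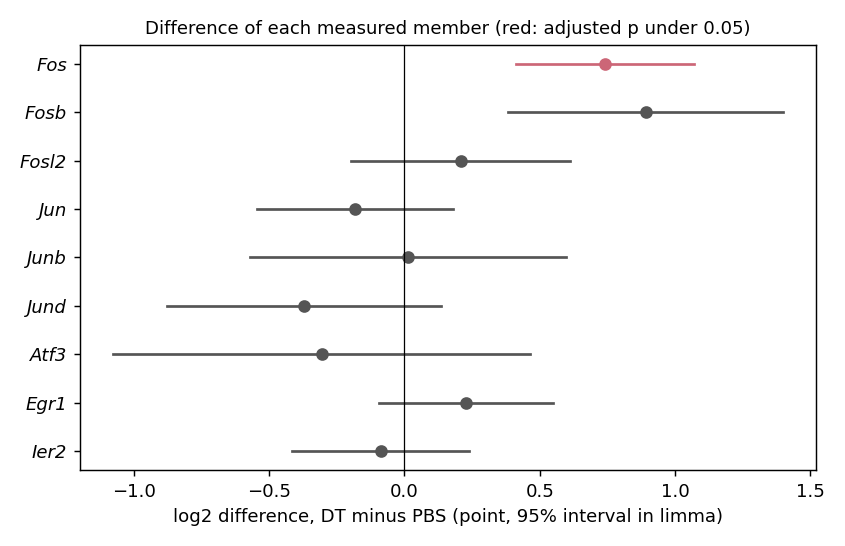
Log2 difference between DT and PBS (horizontal axis; point) with its 95% interval in limma (line) for each measured member. The intervals of Fos and Fosb lie above 0, Fos alone passes the adjusted threshold (red), and the intervals of the other 7 members include 0.

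Atf3, a stress-induced member of the ATF family that pairs with JUN proteins, was the dimmest gene of the set, with signals between 169.8 and 223.1, though above background on all arrays. Normalized values stood at 5.80, 7.36 and 6.43 in PBS and 6.14, 5.88 and 6.65 in DT. PBS replicate 2 was the highest and PBS replicate 1 the lowest, so that the whole DT group fell inside the PBS range. The difference of -0.31 (SE 0.35) had the widest interval of the set, from -1.08 to 0.46 (limma, adjusted p = 0.625), and it was 0.11 without PBS replicate 2.

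Egr1 encodes a zinc finger factor outside AP-1 that is also induced through serum response factor. It was the brightest member, with signals of 20611, 13852 and 21603 in PBS and 21061, 25915 and 21962 in DT, where the highest signal of any probe on an array was between 29170 and 32987. Normalized values stood at 14.25, 14.11 and 14.31 in PBS and 14.48, 14.51 and 14.36 in DT. The DT arrays all lay above the PBS arrays, by 0.05 at the closest pair, and the difference of 0.23 (SE 0.14; 95% interval -0.095 to 0.55) did not pass (limma, adjusted p = 0.366). Before normalization the Egr1 groups overlapped. They also overlapped in the deposited normalized values (13.93, 14.44 and 14.28 in PBS and 14.68, 14.24 and 14.32 in DT). After the normalization used here, groups without overlap were found for 3 of the 9 members, all with DT above. The same held for 28.9% of all genes tested, 15% with DT above.

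Ier2, a small nuclear protein of the immediate early response, read 9.13, 9.03 and 8.91 in PBS and 8.81, 9.00 and 8.98 in DT. The groups overlapped, and the difference of -0.088 (SE 0.15) had a 95% interval from -0.42 to 0.24 (limma, adjusted p = 0.754), and with arrays scaled to equal medians it was 0.137. Like Fos and Egr1 it varied little within groups, with a pooled SD of 0.11, which 10.1% of all genes tested did not exceed.

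The difference between members can be read within each array as the gap between their normalized log2 signals. For Fos minus Jun the gap was 2.56, 3.16 and 2.64 in PBS and 3.71, 3.84 and 3.58 in DT, a shift of 0.92 (SE 0.20). The gap shifted by 1.07 (SE 0.41) for Fosb minus Jun, by 0.83 (SE 0.14) for Fos minus Ier2 and by 0.51 (SE 0.11) for Fos minus Egr1. Fos and Fosb were taken here because their differences were the largest of the set, so these shifts are a description, with no test, and add nothing independent to the values above.

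The members fell into different patterns across the arrays. Fos and Fosb correlated at Pearson r = 0.90 over the 6 arrays, and at 0.72 after each group's mean was removed. Egr1 correlated with Fos at 0.82, but at 0.069 after removal of the group means. Jun correlated negatively, at -0.64 with Fos and -0.80 with Fosb, and at -0.54 and -0.76 after that removal. Junb, Jund and Atf3 correlated with each other at 0.80 to 0.84, and at 0.84 to 0.97 after that removal. Fosb was not separate from them within groups. Its correlations after that removal were 0.74 with Junb, 0.80 with Jund and 0.92 with Atf3, each above its 0.72 with Fos. Over the 6 arrays they were 0.42, -0.083 and 0.24. These values describe 6 points that share arrays, normalization and overall brightness.

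The Junb values ran against the brightness of the arrays. From the dimmest array to the brightest by mean signal (PBS replicate 2, DT replicate 1, DT replicate 3, PBS replicate 3, PBS replicate 1 and DT replicate 2), normalized Junb was lower at every step, an exactly reversed order that 35 of the 9483 genes (0.369%) showed. The Spearman correlation with mean signal was -0.83 for Jund and -0.77 for Atf3. It was 0.029 for Fos and -0.086 for Fosb. The part of array brightness in the values of Junb, Jund and Atf3 was not tested.

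**Figure D3:**
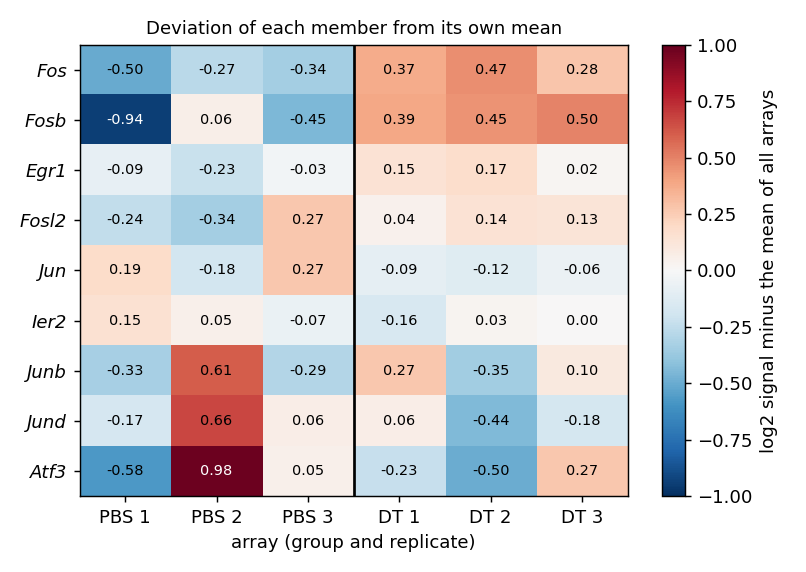
Normalized log2 signal of each member on each array minus that member's mean over the 6 arrays, written in each cell and coloured from blue (below the mean) to red (above it). Fos and Fosb separate the PBS from the DT arrays, apart from Fosb on PBS replicate 2 at 0.06, and Junb, Jund and Atf3 share a high PBS replicate 2 and a low DT replicate 2.

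Among genes outside the set, those whose values over the 6 arrays were most like Fos were Ube2a, a ubiquitin-conjugating enzyme (Pearson r = 0.995), the transmembrane protein gene Jtb (0.991) and Ly6c1 (0.990), a surface antigen whose near-identical neighbour Ly6c2 may share its probe. Their differences were 0.98 (SE 0.17), 0.72 (SE 0.15) and 0.58 (SE 0.15), and Ube2a passed the threshold (limma, adjusted p = 0.0445). Because they were chosen by likeness to Fos over both groups, higher values in DT follow from the choice. With 6 arrays such likeness is common: 420 genes had r above 0.9 with Fos. The genes most like Junb, the brightest JUN gene, were Rinl, Pias2 and Pgap2, at 0.997, 0.996 and 0.990. None of these differed between groups by more than 0.031, which also follows from the choice, since Junb itself differed by 0.013.

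Of 15 tested dimer partners and related bZIP genes, 1 was called, as lower, beside 1.09% of all genes tested (0.759% as lower). Creb1, which encodes a factor that binds the cyclic AMP response element, fell from 6.93 ± 0.21 to 5.86 ± 0.35 (SD, n = 3), a difference of -1.07 (SE 0.20; limma, adjusted p = 0.0459). Mafg, a small MAF protein, gave -0.45 (SE 0.16) and Atf2, a JUN partner, 0.43 (SE 0.16), and the bright Atf4 and Atf5 gave -0.22 and -0.25; limma put all 4 at an adjusted p between 0.133 and 0.435. The median of the list was -0.22.

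Of 37 tested genes in a list of other immediate early genes, none was called as higher and 1 as lower. Over all genes tested these shares were 0.327% and 0.759%. Ier5l, a relative of Ier2, fell from 10.9 ± 0.28 to 9.81 ± 0.30 (SD, n = 3), a difference of -1.04 (SE 0.20; limma, adjusted p = 0.0459). The stress genes Gadd45g and Gadd45b gave -0.55 (SE 0.14; limma, adjusted p = 0.0684) and -0.75 (SE 0.22; 0.0925). Dusp1, the phosphatase that turns off MAP kinases and is itself induced with Fos, gave 0.45 (SE 0.18; limma, adjusted p = 0.163). Its DT arrays all lay above PBS, which held for 15% of all genes tested. Irf1 gave -0.18 (SE 0.18). The list's median was -0.017, with 18 positive and 19 negative differences. An unadjusted p under 0.05 was reached by 4 higher and 5 lower genes, where 12% and 11.9% of all genes tested reached it. Nr4a1, Nr4a3, Egr4, Ier5, Btg2 and Pim1 did not pass the filter.

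Upstream of Fos, 15 genes of the serum response factor and MAP kinase list were tested and none was called, beside 1.09% of all genes tested. The median was 0.051, beside 0.011 over all genes tested. Srf, the factor that binds the CArG box, went from 8.94 ± 0.11 to 9.29 ± 0.15 (SD, n = 3), a difference of 0.36 (SE 0.15). Its DT arrays all lay above PBS, as for 15% of all genes tested. Map2k2, a kinase that activates ERK, gave -0.38 (SE 0.14) and Mapk8, the JNK kinase that phosphorylates JUN, -0.36 (SE 0.15). For these 3 genes limma gave an adjusted p between 0.153 and 0.195. Map2k3 gave -0.091.

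None of 14 tested genes for proteins that restrain AP-1 and EGR factors or the stability of their mRNA was called. Over all genes tested 1.09% were called. The median of the list was -0.0025. Cop1, Zfp36 and Hnrnpd had the smallest p-values, each with all DT arrays above PBS. In the list 4 genes had all DT arrays above PBS and 3 all below, where 15% and 14% of all genes tested did. An unadjusted p under 0.05 in limma was reached by 3 higher and 3 lower genes, beside 12% and 11.9% of all genes tested. The ubiquitin ligase Cop1, which targets JUN, gave 0.51 (SE 0.15), Zfp36, whose protein binds AU-rich elements such as that of the Fos transcript, 0.47 (SE 0.14) and Hnrnpd, another AU-rich element binder, 0.44 (SE 0.14). None passed in limma (adjusted p = 0.0868, 0.0997 and 0.105). Zfp36 went from 11.5 ± 0.095 to 12.01 ± 0.035 and its bright relative Zfp36l1 from 13.1 ± 0.12 to 13.2 ± 0.035 (SD, n = 3).

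Of 25 tested genes known as targets of AP-1, 0 were called in either direction in limma, beside 1.09% of all genes tested. An unadjusted p under 0.05 in limma was reached by 6, all of them lower. Over all genes tested 23.9% reached it in either direction and 11.9% as lower. Differences were negative for 19 and positive for 6, with a median of -0.25, beside 0.011 over all genes tested. The share of negative differences over all genes was not counted. Tnc, the matrix protein tenascin C, gave -0.82 (SE 0.20), the collagenase Mmp13 -0.67 (SE 0.24) and the cyclin gene Ccnd1 -0.52 (SE 0.18); none passed in limma (adjusted p = 0.0613, 0.132 and 0.133). The chemokine Cxcl1, the brightest of the list, gave 0.18 (SE 0.19).

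Tissue dissociation is known to induce heat shock genes together with Fos and Jun. Of 12 tested heat shock and metallothionein genes, 1 was called, as lower: Hspa1a fell by 1.93 (SE 0.25; limma, adjusted p = 0.0193), and its near-identical copy Hspa1b gave -0.63 (SE 0.25; limma, adjusted p = 0.162), with the reservation that both transcripts may bind the same probe. Mt1 gave -0.43 (SE 0.19) and the constitutive Hspa8 -0.09 (SE 0.15). The median of the list was -0.17. Of all genes tested 1.09% were called, 0.759% as lower. How long each sample spent between dissection and lysis is not given in the sources used here.

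**Figure D4:**
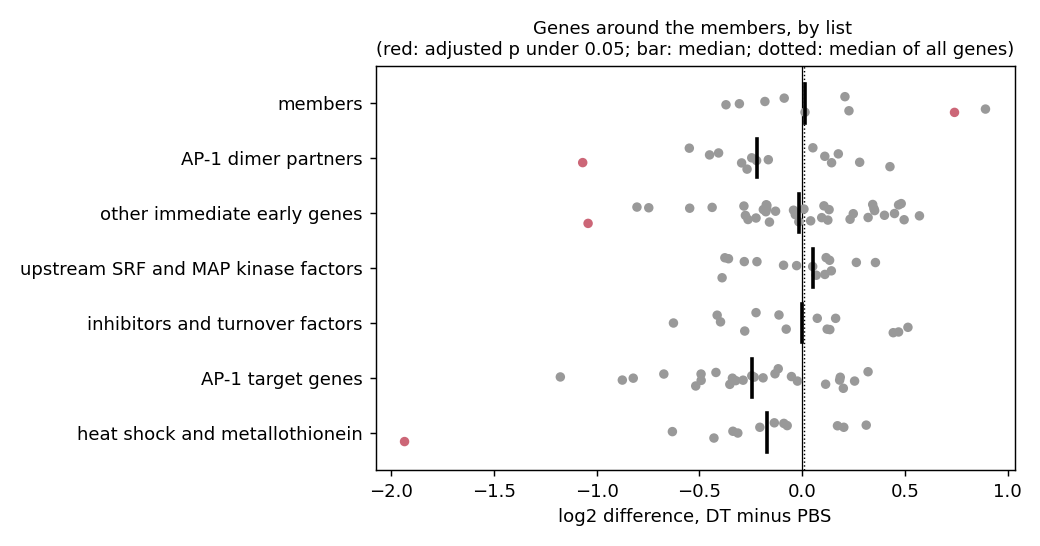
Log2 difference between DT and PBS (horizontal axis) for each tested gene (point) of the member set and of 6 lists of related genes (rows), with the list median as a black bar. Called genes are red: Fos among the members on the right, and Creb1, Ier5l and Hspa1a on the left of 0.

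Markers of other cells also differed between the groups, and their part in the Fos result was not tested. Of 12 neutrophil markers with a probe 7 passed the filter, and Ngp, Camp, Mmp8, Cxcr2 and Mpo did not. The summed normalized signal of the 7 was 454 to 996 in PBS and 1569 to 3138 in DT. S100a8 and S100a9, the brightest, gave 2.18 (SE 0.35; limma, adjusted p = 0.0417) and 2.09 (SE 0.44; 0.0509). Lcn2 and Retnlg were also called as higher, but they and Ltf were above background on no PBS array and on all 3 DT arrays, and so passed the filter through the group where they are high. The neutrophil sums include Lcn2, Retnlg and Ltf, so their contrast between groups is partly fixed by the filter. Csf3r and Elane had negative differences of -0.50 and -0.21, neither called. Of 14 stellate cell and fibroblast markers 10 passed, led by Dcn and Col3a1, with sums of 23140 to 33965 in PBS and 35559 to 38117 in DT. Dpt, a matrix protein, was the 1 called, higher by 1.74 (SE 0.17; limma, adjusted p = 0.00671), and Col1a1 and Col1a2 gave -0.14 and -0.15. Macrophage and monocyte markers, led by Laptm5 and Lyz2, were lower in sum, with 2372 to 5395 in PBS and 1861 to 2342 in DT. Of 18 with a probe 13 passed, none called and all with negative differences (median -0.88, beside 0.011 over all genes tested). An unadjusted p under 0.05 in limma was reached by 10, all lower, where 11.9% of all genes tested reached it as lower. All DT arrays lay below PBS for 5, beside 14% of all genes tested. Clec4f, Marco, Timd4, Ccr2 and Itgam were not above the filter. Of the markers of other cells with a probe, 6 of 10 for dendritic cells and MHC class II passed the filter (2 called as lower). For T and NK cells 3 of 11 passed (1 lower) and for endothelium 3 of 14 (1 higher). For hepatocytes 5 of 11 passed, for red cells and platelets 5 of 8 (none called), and for B cells none of 5. Over all genes tested, 0.327% were called as higher and 0.759% as lower. In such bulk samples, more cells of a kind and more RNA per cell cannot be told apart.

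**Figure D5:**
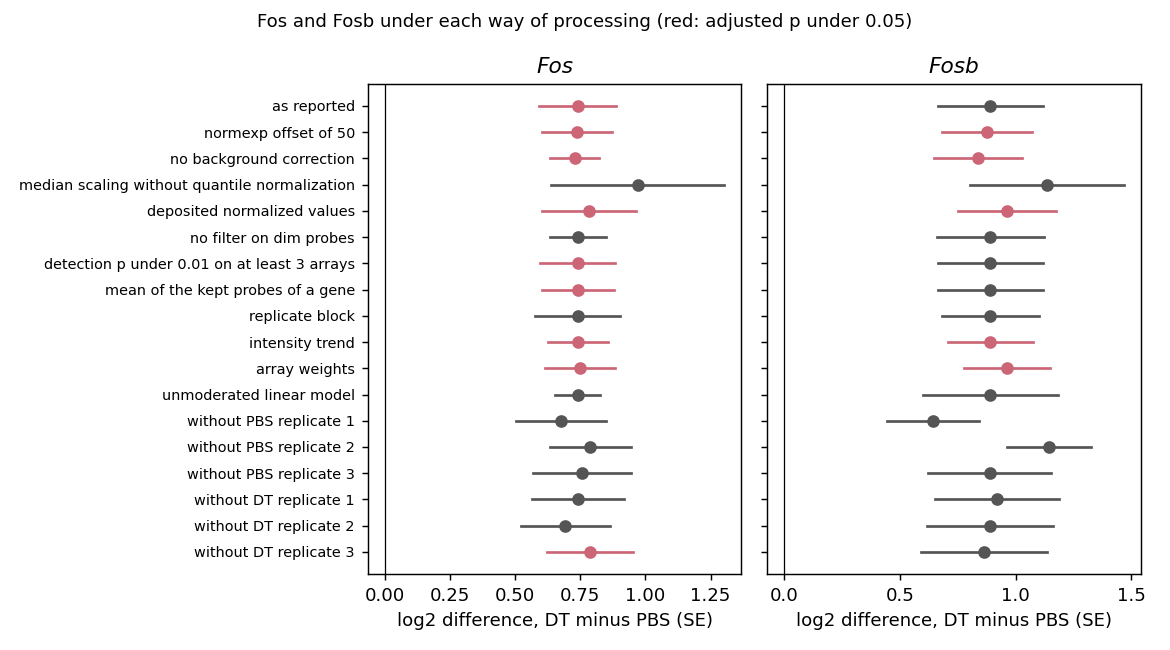
Log2 difference between DT and PBS (horizontal axis, with SE) of Fos (left) and Fosb (right) as reported and under 17 alternative ways of processing (rows), in red where the adjusted p is under 0.05. The difference is positive in every row for both genes, from 0.68 to 0.97 for Fos and from 0.64 to 1.14 for Fosb, and Fos passes in 8 of the 17 alternatives.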

How the data were processed

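RNA of 6 samples was labelled with biotin after oligo-dT based amplification, per the labels' protocols. The deposited raw table holds, per the file headers, a bead signal for each probe and array, a linear intensity without normalization, and next to it a deposited detection p-value. The authors also deposited normalized log2 values, whose making is not given in the sources used here; these served as an alternative. Each column matched 1 labelled sample. Symbols were taken from the platform's annotation and updated through Entrez identifiers: 34885 probes had 1 gene, 18 several and 10378 none named here. Probe sequences were not used here.

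Background correction with the detection p-values (normexp, offset 16), quantile normalization and log2 were done with neqc in limma 3.58.1 under R 4.3.3. The offset makes differences of dim genes smaller, and quantile normalization hides a shift common to all genes. A probe was kept when its detection p was below 0.05 on a minimum of 3 arrays (17759, of which 14903 had 1 gene), and the brightest probe stood for each gene. DT and PBS were compared by lmFit and eBayes over all 9483 genes, two-sided, with Benjamini-Hochberg adjustment and a threshold of 0.05. The number of arrays limits the precision.

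Named genes are all members and, of each pathway list, those past the threshold, the 3 with the smallest p and the 2 brightest. Of marker lists the 2 brightest were eligible; the further neutrophil and fibroblast markers were named after their values were seen. The 3 genes most like the brightest FOS and JUN member were added. Members and lists were chosen with earlier results of these data known. The procedure was tested on simulated data. Alternatives covered background, normalization, filter, probe summary, replicate block, variance model, array weights, threshold and each array left out of the fit. Figures were drawn with matplotlib 3.10.9.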

Additional observations from a re-analysis of the deposited data

How the results depend on the processing

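The direction of Fos, Fosb, Fosl2, Jund and Egr1 held under all 17 alternatives, and 7 of the 9 members were not called under any. Fos lost its call with median scaling (adjusted p = 0.18 in limma), with no filter (0.113) and in an unmoderated model (0.223). Under median scaling limma gave all members the same SE of 0.33, where Fos had 0.15 as reported. The Fos difference there was 0.97. Median scaling shifted the median of all genes to 0.185. Minus that median Fos gave 0.79, Fosb 0.95, Jun -0.11 and Ier2 -0.048. Without the subtraction the differences of Jun (0.0797) and Ier2 (0.137) were reversed. This scaling divides the log2 values of each array by a factor, so the shift is not equal for bright and dim genes. The subtraction is therefore only approximate. Leaving out arrays moved Junb between -0.15 and 0.32, with negative values of -0.1496 and -0.13 (PBS replicates 1 and 3 left out) and of -0.118 and -0.033 (DT replicates 1 and 3), and Atf3 between -0.67 and 0.11.

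The count of called members, 1 as reported, was 2 (Fos and Fosb) with an offset of 50, no background correction, the deposited values, an intensity trend, array weights or a threshold of 0.1. It was 0 with median scaling, no filter, the replicate block or no moderation, and 0 to 1 when arrays were left out. In that order of settings, called genes, 103 as reported, numbered 654, 466, 313, 772, 1059 and 755, then 71, 0, 30 and 0, and 264 with the stricter filter. Where none was called, 2942 genes (no filter) and 1781 (no moderation) had an unadjusted p under 0.05. In the fit over every probe, called probes, 240 as reported, numbered 1180, 672, 464, 1242, 1721 and 1423, then 48, 0, 16 and 0, and 432 with the stricter filter (at 0 called, 5951 and 3249 had an unadjusted p under 0.05). Leaving out arrays gave 0 to 375 genes (45, 12 and 74 for PBS replicates 1 to 3; 4, 0 and 375 for DT replicates 1 to 3; 1284 had an unadjusted p under 0.05 in limma where the count was 0) and 0 to 681 probes. Of called genes 30.1% were higher as reported (31 against 72), 73.2% with median scaling (52 against 19) and 48.2% with the deposited values (151 against 162). The cause was not tested, except that fewer samples or more tests enter by construction when arrays are left out or no filter is set. Same-numbered arrays correlated at -0.10, -0.18 and 0.03 in their deviations from group means. Other pairs of a PBS and a DT array lay between -0.11 and 0.22. With 3 arrays a group these values cannot decide whether the numbers pair the samples.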
